A study of Mus musculus with 10 samples.

Results

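The genes described here encode subunits of the mitochondrial respiratory chain. They are the protein-coding genes whose symbols start with Ndufa, Ndufb, Ndufc, Ndufs, Ndufv, Uqcr, Cox4, Cox5, Cox6, Cox7, Cox8 or Atp5, together with Sdha, Sdhb, Sdhc, Sdhd, Cyc1 and the mitochondrially encoded mt-Nd, mt-Co and mt-Cytb genes. The rule found 105 members among 35427 genes, of which 94 lie in the nuclear genome and 11 in the mitochondrial genome. The prefix Ndufa also takes in 8 Ndufaf genes, which encode assembly factors of complex I and are kept apart below. Ndufa4 and Ndufa4l2, named as complex I subunits, are counted here with complex IV, where the protein is now placed.

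RNA came from 10 mouse embryonic stem cell (ESC) lines, all male and labelled C57BL/6, of 3 genotypes at the gene for thymine-DNA glycosylase, an enzyme that excises oxidised cytosines. There were 3 Tdg+/+ lines, called wt, 3 Tdg+/- lines and 4 Tdg-/- lines, and no agent was given. The lines came from crosses of heterozygous parents, were carried on feeder cells in early passages and were grown on gelatin in serum-free medium with LIF and 2 kinase inhibitors before RNA was taken. Which lines shared a mating is not given, so the tests treat the lines as independent, which sibling lines may not be. The tests set the difference between genotypes against the variation among these lines.

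The respiratory chain moves electrons from NADH and succinate to oxygen and uses the energy to pump protons, and the ATP synthase lets the protons return to make ATP. Complex I, complex III, complex IV and the ATP synthase (complex V) are built from subunits of both genomes, so that nuclear subunits have to be imported and fitted to those made inside the organelle, whereas complex II is wholly nuclear. ESCs in a naive state use both glycolysis and respiration.

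The files held 31095285 to 39916039 reads in genes for each line, of which the nuclear members took 1.64% to 2.07% and the mitochondrial members 0.82% to 1.6%. Tdg itself was at 85.4 to 92.7 CPM, counts scaled to 1000000 reads in genes, in the wt lines, 40.0 to 46.6 in the Tdg+/- lines and 7.71 to 10.6 in the Tdg-/- lines, in the order of the labels. The 12 markers of ESCs summed to 7900 to 8600 CPM in wt, 7920 to 8380 in Tdg+/- and 8050 to 10900 in Tdg-/- lines, and none was at 0 in all lines. The 15 feeder fibroblast markers summed to 14.1 to 89.7 CPM, the 10 primitive endoderm markers to 39.8 to 84.8 and the 8 markers of primed or early neural cells to 103 to 155.

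Tdg-/- line 1 stood apart from the other Tdg-/- lines over the genome, and results are therefore given with and without it. Lines 2, 3 and 4 had more reads in short transcripts and fewer in long ones than the other lines. Effective length here is the deposited length by which reads are divided to give a level per length. For nuclear genes with an effective length under 500 bases, the median log2 difference from the median of the 10 lines was 0.34, 0.26 and 0.29 in these lines and -0.10 in line 1. For genes over 4000 bases it was -0.34, -0.25, -0.30 and 0.08. Most respiratory chain transcripts are short: 48 of the 88 nuclear members with a mean of at least 1 CPM were under 500 bases and 28 were between 500 and 1000. In wt line 1 the genes of chromosome 16, where 3 tested members lie, had a median log2 difference of 0.37, against -0.04 to 0.01 in the other lines.

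The medians of the nuclear members were above 0 and those of the mitochondrially encoded members below 0 in Tdg-/- lines 2, 3 and 4. The same signs were found in wt line 1, and the reverse signs in wt lines 2 and 3 and Tdg+/- line 2. The 88 nuclear members had a median log2 difference of 0.01, -0.09 and -0.14 in wt lines 1 to 3 and of 0.02, -0.03 and -0.13 in Tdg+/- lines 1 to 3. The medians of Tdg-/- lines 1 to 4 were -0.09, 0.40, 0.30 and 0.33, so that line 1 lay among the wt and Tdg+/- lines and the other Tdg-/- lines lay above all of them. Of the mitochondrially encoded members, mt-Nd4l had 0 to 91 reads and is left out of this measure. For the other 10 the median log2 difference was -0.12, 0.44 and 0.62 in wt, 0.59, 0.11 and -0.09 in Tdg+/- and -0.16, -0.25, -0.05 and -0.38 in Tdg-/- lines, so the Tdg-/- values overlapped those of wt line 1 and Tdg+/- line 3.

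**Figure D1:**
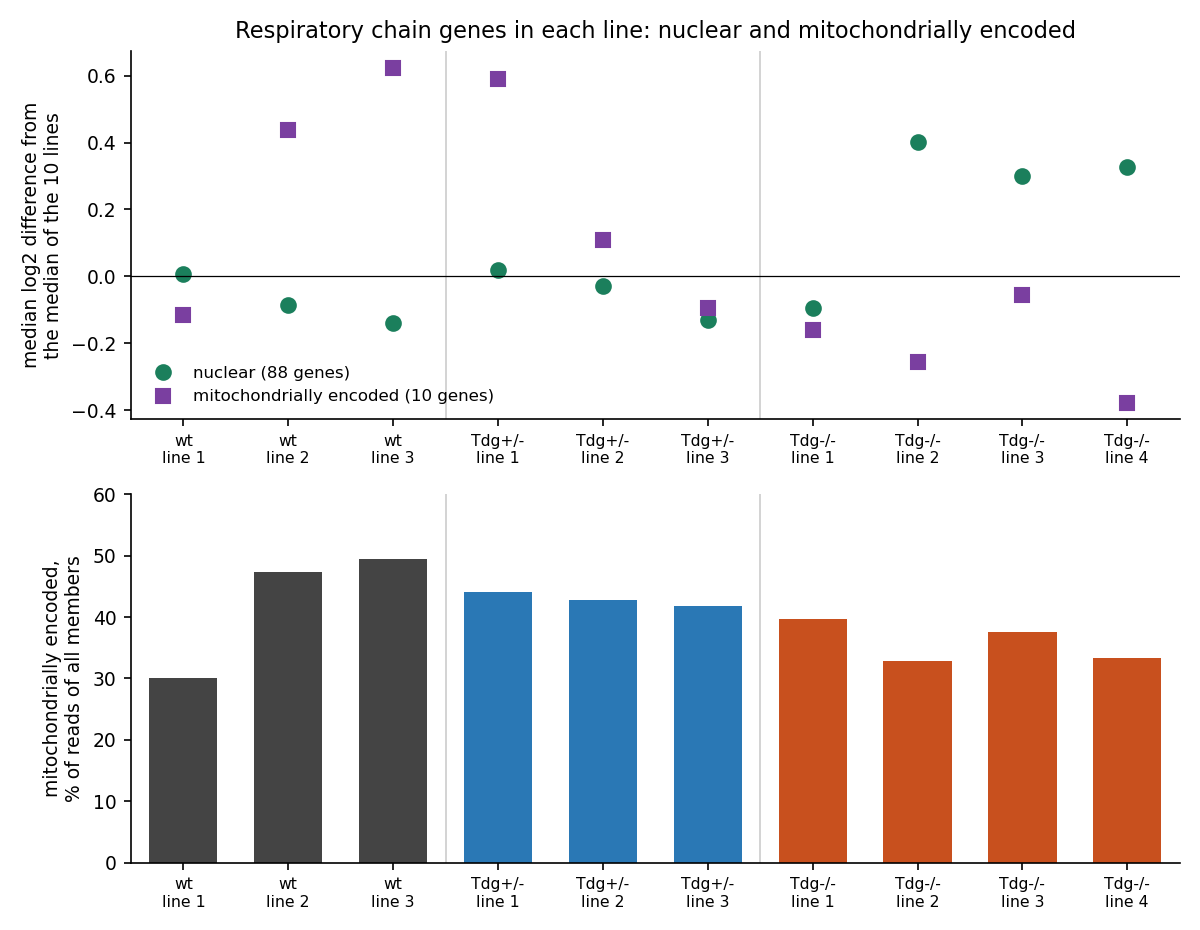
Top, median log2 difference of 88 nuclear (circles) and 10 mitochondrially encoded (squares) respiratory chain genes in each line, relative to the median of the 10 lines for each gene. Bottom, reads of the mitochondrially encoded members as a percent of the reads of all 105 members. Tdg-/- lines 2, 3 and 4 have nuclear medians of 0.30 to 0.40, and the lowest mitochondrial share, 30.1%, is in wt line 1.

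Within a library, the share of member reads that came from the mitochondrial genome does not depend on scaling between libraries. It was 30.1%, 47.4% and 49.4% in wt lines, 44.0%, 42.8% and 41.8% in Tdg+/- lines and 39.7%, 32.8%, 37.6% and 33.3% in Tdg-/- lines. All Tdg-/- lines lay below all Tdg+/- lines, while wt line 1 lay below every Tdg-/- line. The mean share was 42.3% ± 10.6 in wt (SD, n = 3), 42.9% ± 1.12 in Tdg+/- (n = 3) and 35.8% ± 3.36 in Tdg-/- (n = 4). By TPM, in which the reads of a transcript are divided by its length, it was 40.8% ± 9.05, 41.4% ± 1.54 and 33.0% ± 3.26. The share depends on the nuclear members too. Of reads in genes they took a mean of 1.75% in wt, 1.77% in Tdg+/- and 1.94% in Tdg-/- lines. The mitochondrial members took 1.32%, 1.33% and 1.08%, and the part of each in the share was not tested. In bulk RNA, fewer mitochondrial transcripts per cell and another mix of cells cannot be told apart.

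Per length, the most abundant members were mitochondrially encoded. The mean over the 10 lines was 9640 TPM for mt-Co3, 4740 for mt-Co1, 2420 for mt-Nd3 and 2360 for mt-Co2, which encode 3 catalytic core subunits of complex IV and 1 membrane subunit of complex I. This order rests on the effective lengths, 341 bases for mt-Co3 and 812 for mt-Co1. By CPM mt-Co1, at 4990, lay above mt-Co3, at 4330. The nuclear Atp5b, at 2350 CPM, lay above mt-Co2 and mt-Nd3, at 1190 and 1000. The nuclear members of complex I had a median level of 144 TPM, from 17.8 for Ndufa13 to 529 for Ndufa7. The value of Ndufa13 rests on its long effective length of 4271 bases, and its mean was 98.3 CPM. Those of complex II had a median of 175 TPM and those of complex III of 271 TPM. Higher levels were found for the nuclear members of complex IV, with a median of 705 TPM and up to 2020 for Cox7b, and of complex V, with 678 TPM and up to 1880 for Atp5b, the catalytic beta subunit. The complex I assembly factors had the lowest median, 32.7 TPM.

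The first comparison, Tdg+/- against wt, asks whether the loss of 1 copy of Tdg goes with a change. No member passed at an adjusted p under 0.05 in edgeR's quasi-likelihood test, among 89 nuclear and 11 mitochondrial members tested. The other 5 nuclear members, Cox4i2, Cox6a2, Cox8b, Cox8c and a second gene named Atp5o, had 0 to 3 reads per library and fell under the filter on low counts. Over all 13880 genes 0.0144% were called higher and 0.0144% lower. Before adjustment (p under 0.05) 8 nuclear members were higher and 2 lower, beside 9.55% and 7.41% of all genes, and none of the mitochondrial members. DESeq2 called 3 members higher and 1 lower, and of all genes 3.51% higher and 1.85% lower. The median log2 fold change was 0.02 for nuclear and -0.11 for mitochondrial members, against -0.02 over all genes.

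Of the nuclear members higher at the unadjusted level, 5 lie on chromosome 11, and these were all of the members on that chromosome. Atp5h and Ndufaf8 are named here after their values were seen. The 5 are Atp5g1, 1 of 3 genes for the c subunit of the ATP synthase rotor, Atp5h, a stalk subunit, Uqcr10 and Uqcrq, small subunits of complex III, and the complex I assembly factor Ndufaf8. Atp5g1 was at 228, 211 and 185 CPM in wt, 270, 351 and 327 in Tdg+/- and 215, 254, 213 and 274 in Tdg-/- lines. Its log2 fold change was 0.59 (SE, the standard error, 0.133; edgeR adjusted p = 0.107). Uqcrq was at 109, 91.3 and 86.7 CPM in wt and at 135, 157 and 118 in Tdg+/- lines, with a log2 fold change of 0.50 (SE 0.148, edgeR adjusted p = 0.17). Uqcr10 had 0.47 (SE 0.165, edgeR adjusted p = 0.214). For all 5 the Tdg+/- range lay above the wt range, which held for 12.8% of all genes, and lower ranges for 8.98%. The other 777 genes of chromosome 11 with a mean of at least 5 CPM had a median log2 fold change of 0.43 in the same comparison, close to the median of 0.50 of these members.

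The lowest value among the nuclear members was that of Ndufaf4, an assembly factor of complex I. It was at 42.3, 46.2 and 55.5 CPM in wt lines and at 30.4, 30.2 and 29.2 in Tdg+/- lines. All Tdg+/- lines were below all wt lines, with a log2 fold change of -0.70 (SE 0.131, edgeR adjusted p = 0.0875). In complexes I to V, the other members with a mean of at least 1 CPM lay between -0.38 and 0.51, apart from Atp5g1. In complex I, Ndufv1, the flavoprotein subunit that takes up electrons from NADH, had 0.38, and in complex II, Sdha, the flavoprotein that oxidises succinate, had 0.36 with non-overlapping ranges. In complex IV the heart and muscle isoform Cox7a1 had 0.51 at a low level, and Cox7b, a structural subunit, had -0.29. In complex V Atp5g2, another c subunit gene, had -0.38, but it is identical over 645 bases to the transcribed pseudogene Gm10175, which took 49.8% of the reads of both, and it had 0.01 with the reads of the copy added.

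The second comparison, Tdg-/- against wt, asks about the loss of both copies. Again no member passed with all 7 lines, where 0.0359% of 13926 genes were called higher and 0.0359% lower. Before adjustment, 39 of the 89 nuclear members had a p under 0.05 and a higher level and none a lower one, against 9.13% of all genes higher and 6.79% lower. By fitted value, 84 were above 0 and 5 below. The median was 0.31 for the nuclear and -0.60 for the 11 mitochondrial members, 6 of which had an unadjusted p under 0.05 and a lower level. DESeq2 called 2 members lower, mt-Nd2 and mt-Nd4, and none higher, beside 0.287% of all genes lower and 0.381% higher.

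Every complex had a nuclear median above 0. The median was 0.37 in complex I, where all 35 members had a value above 0, 0.20 in complex II (4 members), 0.39 in complex III (9), 0.37 in complex IV (16), 0.27 in complex V (17) and 0.24 for the assembly factors (8). Leaving aside Cox7b2, which was under 1 CPM, the highest in each complex were Ndufa11 with 0.62, Sdhd with 0.43, Uqcr10 with 0.67, Cox7a1 with 0.73 and Atp5e with 0.70, all with an adjusted p of 0.295 or 0.296 from edgeR. Atp5e, the epsilon subunit of the ATP synthase, was at 116 ± 27 CPM in wt (SD, n = 3) and at 129, 232, 186 and 200 CPM in the Tdg-/- lines. Line 1 lay within the wt range and the other lines above it. By TPM the Tdg-/- lines, at 481, 424, 471 and 438, all lay within the range of the wt values of 490, 363 and 406.

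Sdhd, a membrane anchor of complex II, was at 196, 203 and 194 CPM in wt lines and at 191, 314, 254 and 295 in Tdg-/- lines. Ndufa7, an accessory subunit and the most abundant of the nuclear complex I members per length, was at 192, 173 and 165 CPM in wt and at 169, 337, 276 and 269 in Tdg-/- lines. Cox7b was at 314, 321 and 333 CPM in wt and at 272, 536, 473 and 458 in Tdg-/- lines. In each of these 3 genes Tdg-/- line 1 had the lowest CPM of the genotype and the wt lines were close together. By TPM, the other Tdg-/- lines also lay above the wt lines for Ndufa7 and Sdhd. For Cox7b the genotypes overlapped, with 1740, 2200, 2600 and 2150 TPM in Tdg-/- and 1990, 2120 and 2500 in wt lines.

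Without Tdg-/- line 1, 55 of the 89 nuclear members rose and none fell at an adjusted p under 0.05, and 3 of the 11 mitochondrial members fell. Over all genes in that fit 11.7% were called higher and 10.5% lower. Line 1 was the only Tdg-/- line with a nuclear median below 0 (-0.09), so these calls are not independent of leaving it out. With Tdg-/- line 2, 3 or 4 left out in its place, 0 members were called higher and 0 lower. Without line 1, the nuclear calls were 23 of 35 members of complex I, 2 of 4 of complex II and 6 of 9 of complex III. They were 10 of 16 of complex IV, 10 of 17 of complex V and 4 of 8 assembly factors. The median log2 fold change was then 0.42 for nuclear and -0.66 for mitochondrial members. Among the nuclear ones Ndufa7 rose by 0.75, Cox4i1, a core-associated subunit of complex IV, by 0.68, Sdhd by 0.56 and Atp5e by 0.84 on the log2 scale (adjusted p = 0.0102, 0.0104, 0.0116 and 0.0166 from edgeR). With the length trend of each line also removed, 14 nuclear members rose and 1 fell, the nuclear median was 0.13, and 5 mitochondrial members fell, where 4.71% of all genes were called higher and 4.65% lower.

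**Figure D2:**
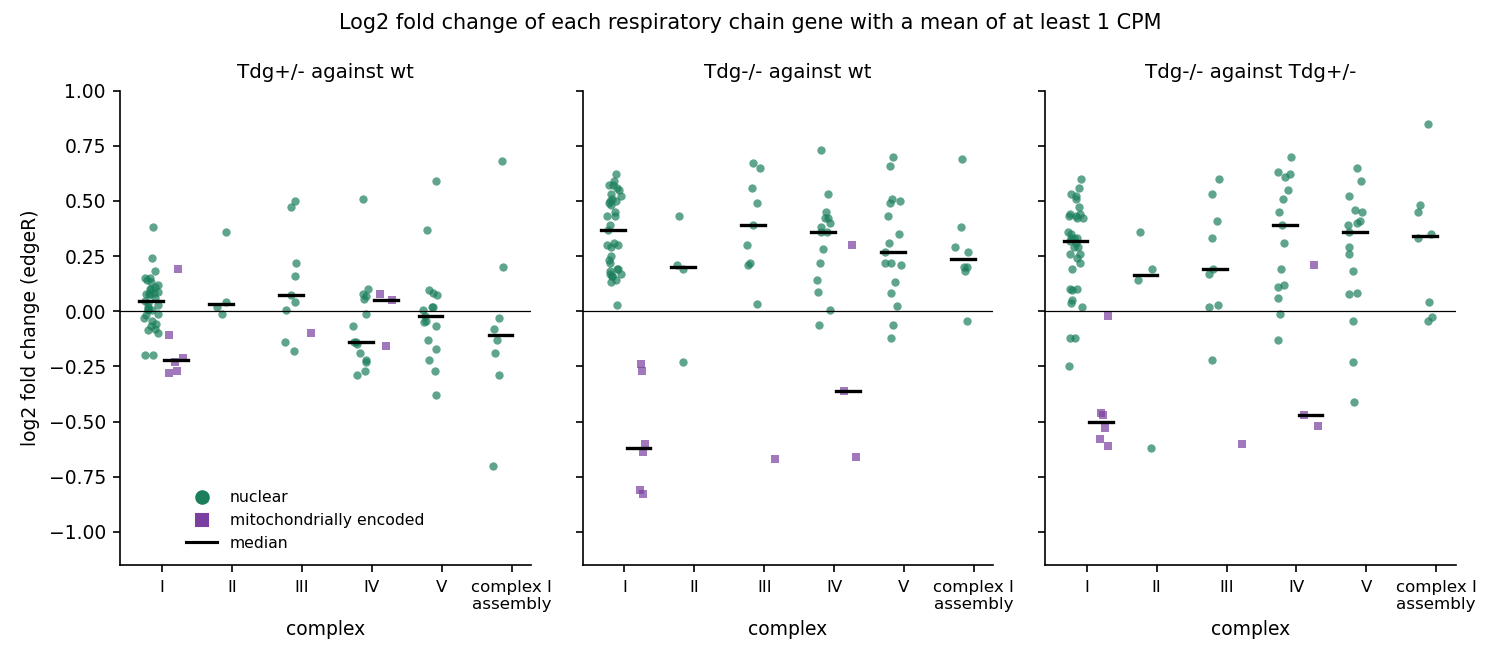
Log2 fold change (y axis, edgeR) of each member with a mean of at least 1 CPM, by complex (x axis), for the 3 comparisons. Circles are nuclear and squares mitochondrially encoded genes, and bars are medians. In Tdg-/- against wt all 35 nuclear members of complex I lie above 0, whereas of the mitochondrial genes mt-Co3 alone does.

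The third comparison, Tdg-/- against Tdg+/-, had 5 members that passed in edgeR with all lines. Of the nuclear members 2 rose, Ndufaf4 and Uqcrc2, and of the mitochondrial members 3 fell, mt-Nd1, mt-Co2 and mt-Cytb. Over 13962 genes 3.52% were called higher and 5.51% lower. Before adjustment, 36 nuclear members had a higher and 3 a lower level, against 16.4% and 18.8% of all genes, and 6 mitochondrial members were lower. The median was 0.32 for nuclear and -0.47 for mitochondrial members. The 3 comparisons share lines with each other, so their values are not independent. DESeq2 called 26 members higher and 7 lower, beside 12% of all genes in each direction. The 5 calls depended on the fit also with every line kept. With all 10 lines in 1 fit, those of mt-Nd1, mt-Co2 and mt-Cytb were lost. With a transcript length offset, those of mt-Nd1, mt-Co2 and Uqcrc2 were lost, and with RLE size factors that of mt-Nd1. The 5 calls were also sensitive to single lines: that of Ndufaf4 was lost without Tdg+/- line 2 or 3, the other 4 without any Tdg+/- line, and all 5 without Tdg-/- line 2, 3 or 4, whereas all 5 remained without Tdg-/- line 1. Without that line the log2 fold changes were 0.91 for Ndufaf4, 0.64 for Uqcrc2, -0.49 for mt-Nd1, -0.58 for mt-Co2 and -0.63 for mt-Cytb (adjusted p = 0.00126, 0.00177, 0.0131, 0.00573 and 0.0130 from edgeR).

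Ndufaf4 was at 46.4, 57.4, 58.5 and 53.4 CPM in Tdg-/- lines, above the 29.2 to 30.4 CPM of all Tdg+/- lines. The log2 fold change was 0.85 (SE 0.117, edgeR adjusted p = 0.0211), and the Tdg-/- values overlapped those of wt, with 0.18 in Tdg-/- against wt. Uqcrc2, a core protein of complex III, was at 356, 349 and 356 CPM in wt, 329, 328 and 289 in Tdg+/- and 354, 513, 478 and 488 in Tdg-/- lines. It rose by 0.53 (SE 0.141, edgeR adjusted p = 0.0478), and the lowest Tdg-/- line, line 1, was within the wt range. Without that line 54 nuclear members rose, 1 mitochondrial member rose and 4 fell, at background shares of 18.4% called higher and 22.2% lower, and Sdha alone among the nuclear members fell. With the length trend also removed, 17 nuclear members rose, 10 fell and 7 mitochondrial members fell, beside 13.5% and 16.6% of all genes. With Tdg-/- line 2, 3 or 4 left out in place of line 1, 0 members were called higher and 0 lower.

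Sdha, on chromosome 13, had the lowest value of the nuclear members in this comparison. It was at 219, 181 and 167 CPM in wt, 221, 256 and 260 in Tdg+/- and 216, 130, 143 and 152 in Tdg-/- lines. All Tdg-/- lines lay below all Tdg+/- lines, and the log2 fold change was -0.62 (SE 0.172, edgeR adjusted p = 0.0517). Without Tdg-/- line 1 it was -0.80 (adjusted p = 0.00131). Its partners in complex II had values of 0.19 for Sdhb, the iron-sulphur subunit, and 0.36 for Sdhd in the same comparison.

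Smaller differences were found for other nuclear members. Atp5b was at 2380, 2290 and 2110 CPM in wt, 2250, 2340 and 2360 in Tdg+/- and 2390, 2460, 2430 and 2500 in Tdg-/- lines. The Tdg-/- lines were above all others, by a log2 fold change of 0.13 against wt (SE 0.105, edgeR adjusted p = 0.505). The lowest members of the other complexes in Tdg-/- against wt were Ndufa10 of complex I and Uqcrc1, a core protein of complex III, both with 0.03, Cox6b2 of complex IV with -0.06 and Atp5d, the delta subunit of the ATP synthase, with -0.12. Atp5d was at 67.7, 73.6, 68.5 and 68.3 CPM in the Tdg-/- lines and at 59.4 to 94.0 in wt.

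**Figure D3:**
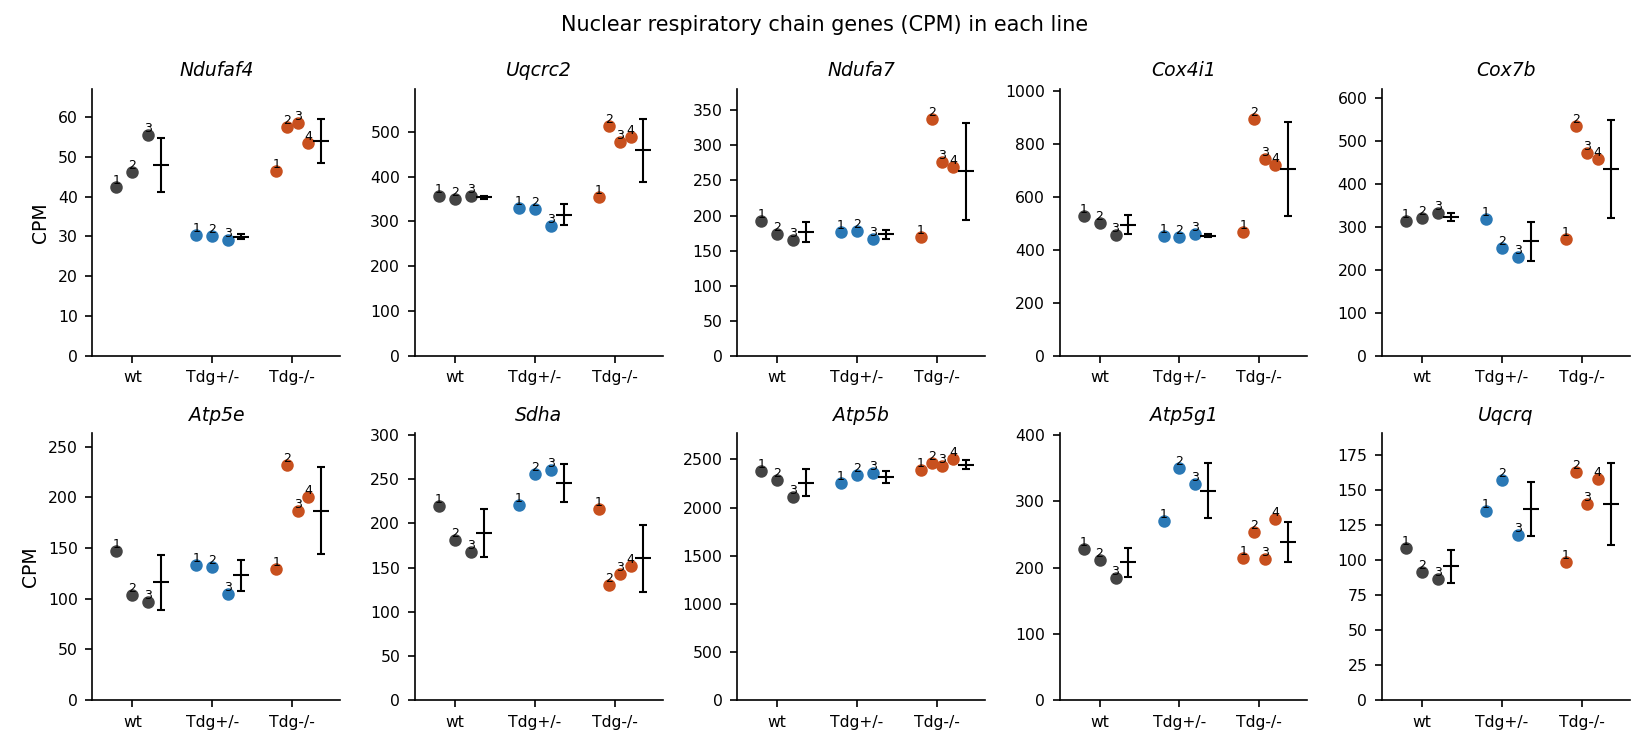
CPM (y axis, from 0) of 10 nuclear respiratory chain genes in each wt, Tdg+/- and Tdg-/- line; points are lines, numbered by replicate, and bars are the mean and SD of the genotype. In Ndufa7, Cox4i1, Cox7b and Atp5e Tdg-/- line 1 lies near the wt and Tdg+/- lines and the other Tdg-/- lines above them; Sdha shows the reverse, and Ndufaf4 is lowest in the Tdg+/- lines.

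Among the mitochondrial members, those for complex I, complex III and complex IV are cut from long transcripts of the 2 strands, and all but mt-Nd6 are read from 1 strand. Both mt-Nd1, a core subunit of complex I, and mt-Cytb fell in Tdg-/- against Tdg+/- lines. mt-Nd1 was at 290, 549 and 668 CPM in wt, 489, 449 and 375 in Tdg+/- and 331, 295, 345 and 303 in Tdg-/- lines. It fell by 0.46 on the log2 scale against Tdg+/- (SE 0.125, edgeR adjusted p = 0.0492), with no overlap of the lines. mt-Cytb, the only mitochondrially encoded subunit of complex III, was at 158, 267 and 293 CPM in wt, 278, 220 and 176 in Tdg+/- and 157, 143, 152 and 144 in Tdg-/- lines. It fell by 0.60 against Tdg+/- (SE 0.151, edgeR adjusted p = 0.0436), and all Tdg-/- lines were below all other lines, though by little in the case of wt line 1.

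Of the complex IV core subunits mt-Co2 fell against Tdg+/-, whereas mt-Co1 and mt-Co3 did not pass. mt-Co1 was at 2460, 6540 and 7110 CPM in wt, 6000, 6030 and 5130 in Tdg+/- and 4580, 3850, 4470 and 3690 in Tdg-/- lines. Its log2 fold change against Tdg+/- was -0.47 (SE 0.132, edgeR adjusted p = 0.0528) with no overlap. mt-Co2 was at 736, 1870 and 1760 CPM in wt, 1420, 1310 and 1200 in Tdg+/- and 1010, 876, 995 and 770 in Tdg-/- lines, and fell by 0.52 (SE 0.132, edgeR adjusted p = 0.0435). In both genes wt line 1 was the lowest of the 10 lines.

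mt-Co3 was at 3010, 4540 and 4260 CPM in wt, 4500, 3880 and 3960 in Tdg+/- and 3810, 4970, 5580 and 4800 in Tdg-/- lines. The Tdg-/- lines overlapped the others, with a log2 fold change of 0.21 against Tdg+/- (SE 0.145, edgeR adjusted p = 0.308). Without Tdg-/- line 1 it was 0.31 (adjusted p = 0.0369), but with the length trend of each line removed it was -0.13 (adjusted p = 0.39). The nuclear copy Gm28437 on chromosome 1 is identical to mt-Co3 over 783 bases and was given 8749 to 41359 reads, and Gm28661 is identical to mt-Co2 over 681 bases and was given 1458 to 9353, so levels of these genes depend on how shared reads were divided. With the reads of the copies added, mt-Co3 against Tdg+/- had 0.26 and mt-Co2 -0.35 (adjusted p = 0.252 and 0.115 from edgeR), and the call for mt-Co2 was lost.

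Of the other complex I genes of the mitochondrial genome, mt-Nd2 was at 49.7, 53.6 and 71.1 CPM in wt, 68.3, 41.8 and 34.7 in Tdg+/- and 33.6, 28.4, 37.3 and 30.7 in Tdg-/- lines, all below wt, with a log2 fold change of -0.83 against wt (SE 0.151, edgeR adjusted p = 0.231). mt-Nd4 had -0.81 and mt-Nd5 -0.60 against wt, and for these 2 genes, mt-Nd2 and mt-Cytb no Tdg-/- line reached the lowest wt line, as for 5.28% of all genes, with 4.6% the other way. In Tdg+/- line 1, mt-Nd4, mt-Nd5 and mt-Nd6 were at 58.3, 75.4 and 14.0 CPM, above all other lines. mt-Nd3 had -0.27 against wt and -0.02 against Tdg+/-, and mt-Nd6 -0.24 and -0.47 with a standard error of 0.283 and 0.518.

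Between Tdg-/- and Tdg+/- 4 mitochondrial members did not overlap, all lower, beside 13.1% of all genes lower and 11.4% higher. mt-Nd4l, which overlaps mt-Nd4, has an identical nuclear copy, Gm10222, that took 81.5% of the reads of both, so its level is uncertain. The 2 mitochondrial ATP synthase genes, which the rule leaves out, were measured as well. mt-Atp8 was at 102, 87.1 and 118 CPM in wt and at 54.2, 39.1, 50.1 and 50.2 in Tdg-/- lines and fell by 1.07 against wt (SE 0.147, edgeR adjusted p = 0.0453), and mt-Atp6 fell by 1.04 against Tdg+/- (SE 0.18, edgeR adjusted p = 0.0241).

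**Figure D4:**
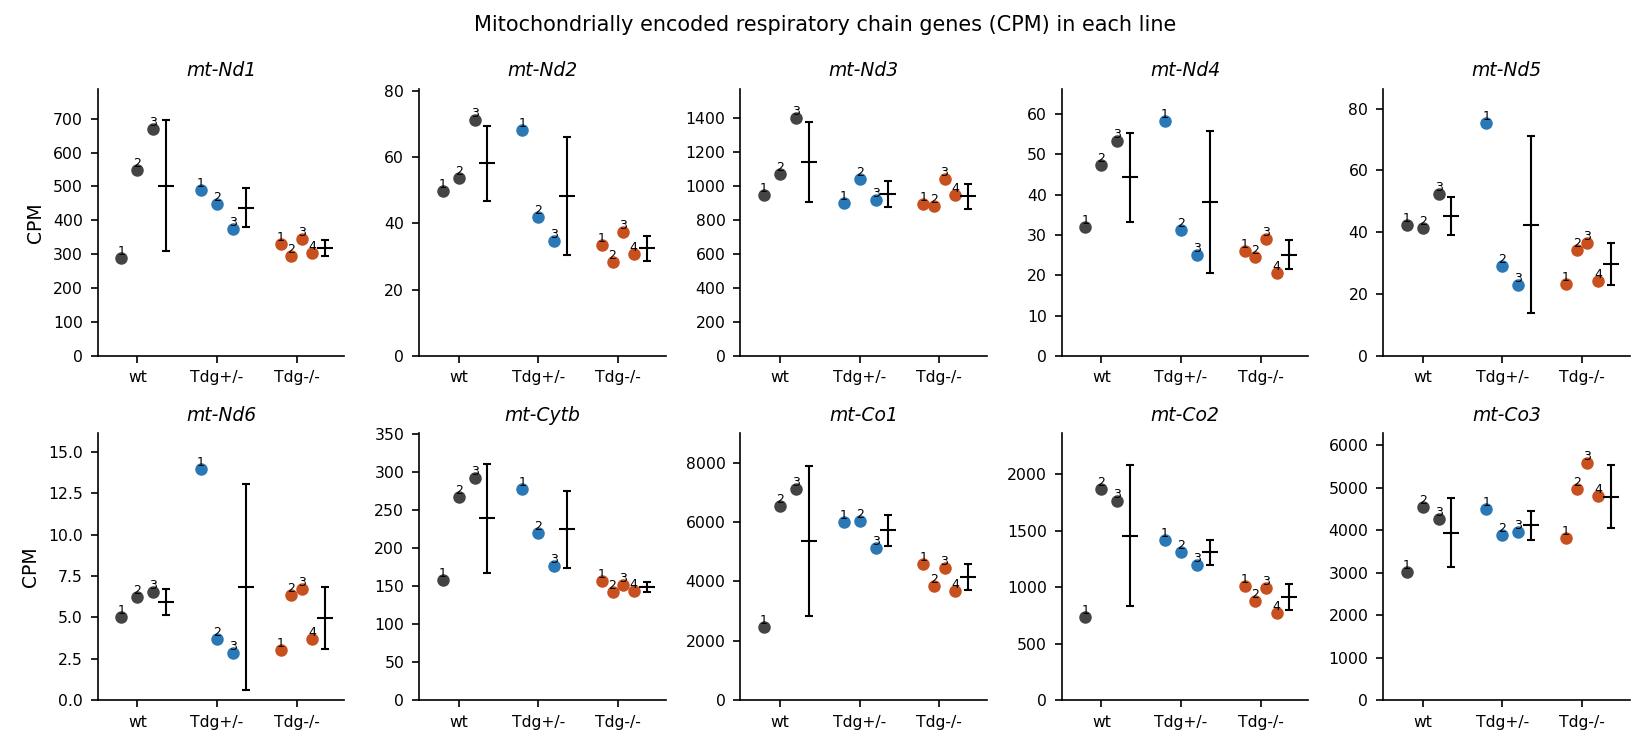
CPM (y axis, from 0) of 10 mitochondrially encoded respiratory chain genes in each wt, Tdg+/- and Tdg-/- line; points are lines, numbered by replicate, and bars are the mean and SD of the genotype. The Tdg-/- lines are close together and low in mt-Nd1, mt-Cytb, mt-Co1 and mt-Co2, wt line 1 is lowest in mt-Co1 and mt-Co2, and mt-Co3 is not lower in the Tdg-/- lines.

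The higher values of the nuclear members went with transcript length. All nuclear genes under 500 bases had a median log2 fold change of 0.29 in Tdg-/- against wt, beside 0.42 for the 48 members of that length. Between 500 and 1000 bases it was 0.16 and 0.22 (28 members), and between 1000 and 2000 bases 0.01 and 0.21 (11 members). Across the 88 nuclear members, Spearman's rho of effective length and log2 fold change was -0.31 in Tdg-/- against wt, -0.30 in Tdg-/- against Tdg+/- and 0.21 in Tdg+/- against wt. These are descriptions across genes of the same libraries, which are not independent.

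When the trend on length was removed from each line, a step added after the values were seen, the nuclear median fell to 0.10 in Tdg-/- against wt and to 0.02 in Tdg-/- against Tdg+/-. The mitochondrial median went to -0.74 and -0.68. Across the 88 nuclear members, Spearman's rho of length and log2 fold change was then 0.22 and 0.19. The values of the nuclear members thus still went with length, in the other direction. Against wt the nuclear median was then 0.21 in complex III and 0.11 in complex I. Atp5e had 0.38, Ndufa7 0.27, Sdhd 0.23 and Cox7b 0.061 against wt (adjusted p = 0.346, 0.363, 0.381 and 0.771 from edgeR). In the comparison with Tdg+/- the nuclear medians of the complexes and assembly factors lay between -0.04 and 0.06. Ndufaf4 and Uqcrc2 kept values of 0.81 and 0.35 (adjusted p = 0.015 and 0.0496 from edgeR). Genes for cytosolic ribosomal proteins, which are also short, were at 0.52, 0.44 and 0.35 in Tdg-/- lines 2 to 4 and -0.08 in line 1, and the summed ESC markers were highest in the same lines, with 10878, 10443 and 9994 CPM. The largest part of that sum was 1 gene, Dppa5a, at 2680 to 5170 CPM over the lines, whereas Nanog was at 573 to 705. The part of the ESC markers in the nuclear result was not tested.

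**Figure D5:**
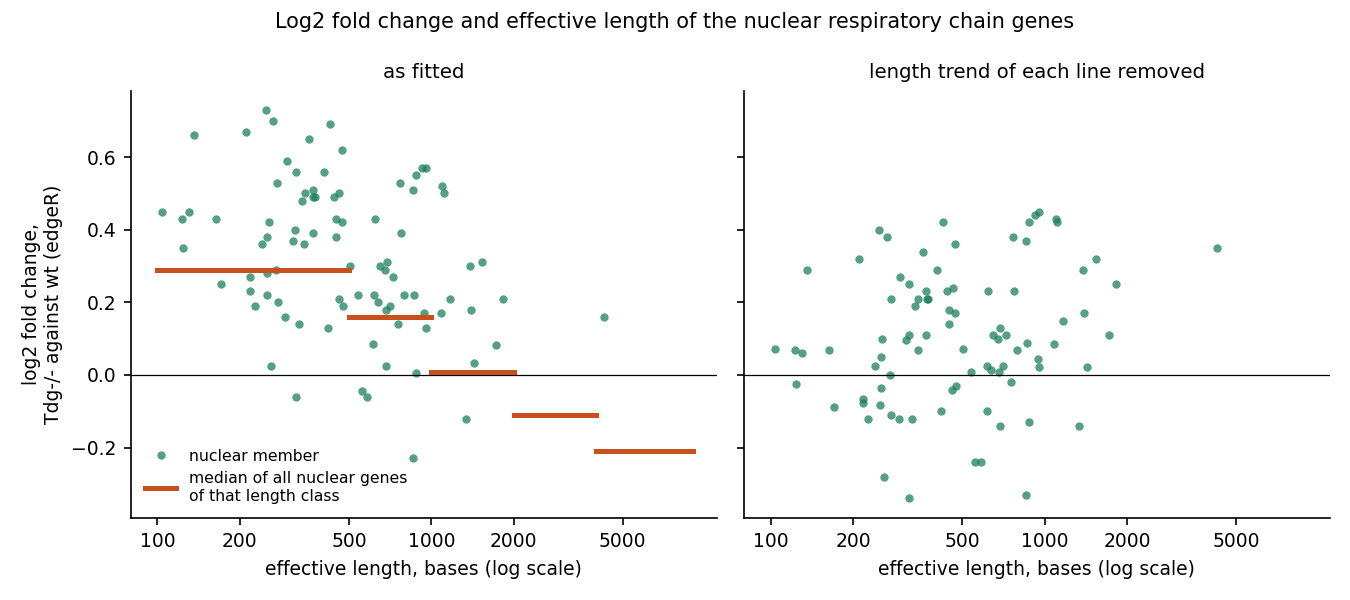
Log2 fold change in Tdg-/- against wt (y axis, edgeR) against effective length in bases (x axis, log scale) for 88 nuclear members, as fitted (left) and with the length trend of each line removed (right). Horizontal bars are medians of all nuclear genes of a length class, from 0.29 under 500 bases to -0.21 over 4000 bases; the median of the members goes from 0.31 to 0.10.

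Subunits with tissue isoforms were present in ESCs almost wholly as the ubiquitous form. Per length, Cox4i1 was at 1540 TPM and Cox4i2, the lung isoform induced by low oxygen, at 0.0421, with 0 to 2 reads in a line. Cox6a1 was at 230 TPM and the muscle form Cox6a2 at 0.0343. Cox8a was at 366 TPM, and Cox8b and Cox8c had 1 read each in all lines together. Such low counts limit these levels to counting error and leave no comparison.

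Other isoforms known from muscle or testis passed the filter on low counts. Cox7a1, of heart and skeletal muscle, was at 36.8 TPM beside 708 for Cox7a2 and 455 for Cox7a2l. Cox6b2, of testis, was at 29.1 TPM beside 1010 for Cox6b1. Cox7b2, also of testis, had 11 to 37 reads in a line and was at 1.52 TPM beside 2020 for Cox7b, with a log2 fold change of 0.77 in both comparisons with wt (SE 0.524 and 0.403, edgeR adjusted p = 0.494 and 0.349). Cox7a1 was at 7.07, 9.97 and 9.40 CPM in wt, 15.4, 12.6 and 9.82 in Tdg+/- and 9.42, 17.0, 15.5 and 15.9 in Tdg-/- lines, and the genotypes overlapped.

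The c subunit of the ATP synthase is made from 3 genes that encode the same mature protein. Atp5g3 was the most abundant with 746 TPM, before Atp5g1 with 227 and Atp5g2 with 159. Atp5g3 was at 309, 312 and 265 CPM in wt, 301, 301 and 304 in Tdg+/- and 293, 488, 437 and 433 in Tdg-/- lines, with a log2 fold change of 0.50 against wt (SE 0.173, edgeR adjusted p = 0.295). Atp5g1 had 0.22 and Atp5g2 -0.06 in that comparison, and 0.23 for Atp5g2 with its copy added. The differences between the 3 genes were not tested.

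Nuclear members are known targets of the factors NRF1, GABP of the ETS family and YY1, which bind near the start of many genes for mitochondrial proteins. Promoters from RefSeq (GRCm38.p6), from 250 bases before to 50 after the start, were matched by symbol for 75 nuclear members. Searched on both strands, GCGCATGCG, the core of the palindromic NRF1 site, stood in 10 of these (13.3%) and in 2.72% of 16740 genes with a promoter. The ETS letters CCGGAAG stood in 19 (25.3%, against 13.3%) and the YY1 letters AAGATGGCG in 8 (10.7%, against 2.23%). No further motif was searched, and the letters of the 3 motifs do not contain one another. The last 120 bases before the start are printed for 5 members named above, 4 with such letters and Cox7b with none, and motif letters are in capitals. Where capitals run to 10 bases the NRF1 letters are present on both strands.

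Ndufaf4, chr4:24897963-24898082, plus strand: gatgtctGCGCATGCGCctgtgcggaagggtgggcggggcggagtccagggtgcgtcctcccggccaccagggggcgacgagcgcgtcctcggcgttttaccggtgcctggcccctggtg
Ndufa11, chr17:56717642-56717761, plus strand: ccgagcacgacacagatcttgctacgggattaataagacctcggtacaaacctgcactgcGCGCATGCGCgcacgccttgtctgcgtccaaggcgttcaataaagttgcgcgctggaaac
Sdhd, chr9:50603850-50603969, minus strand: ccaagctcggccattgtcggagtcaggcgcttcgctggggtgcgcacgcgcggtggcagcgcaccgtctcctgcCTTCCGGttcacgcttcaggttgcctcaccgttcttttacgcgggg
Atp5e, chr2:174464102-174464221, minus strand: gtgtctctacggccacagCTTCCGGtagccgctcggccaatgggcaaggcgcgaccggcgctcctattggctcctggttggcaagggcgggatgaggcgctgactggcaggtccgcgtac
Cox7b, chrX:106015580-106015699, plus strand: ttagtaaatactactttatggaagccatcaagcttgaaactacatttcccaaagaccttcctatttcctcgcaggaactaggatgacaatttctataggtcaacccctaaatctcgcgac

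Among members with a mean of at least 1 CPM, those with the NRF1 letters had a median log2 fold change of 0.37 in Tdg-/- against wt (10 members) and those without of 0.30 (63 members). For the ETS letters the medians were 0.36 (19) and 0.30 (54), and for the YY1 letters 0.49 (8) and 0.30 (65). Cox7b, with no such letters in its window, had 0.45. The medians are descriptions and their differences were not tested.

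Other genes of the pathway were taken from lists. Mitochondrial ribosomal protein genes had the nearest values to the nuclear members, with a median of 0.34 in Tdg-/- against wt over 78 genes. Without Tdg-/- line 1, 51 rose and 1 fell, beside 11.7% and 10.5% of all genes. Against Tdg+/- with all lines, Mrpl50 and Mrpl23 rose by 0.69 and 0.62 and Mrpl38 fell by 0.47 (adjusted p = 0.0435, 0.0438 and 0.0402 from edgeR). In that fit 3.52% of all genes were called higher and 5.51% lower. The 40 assembly and copper delivery factors tested had a median of 0.24 against wt. Without line 1, 16 were called higher and none lower, beside the same 11.7% and 10.5% of all genes. Cox10, which makes heme for complex IV and lies on chromosome 11, fell by 0.51 against Tdg+/- (adjusted p = 0.0475).

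Genes that transcribe and process the mitochondrial genome had a lower median, 0.13 over 28 genes in Tdg-/- against wt. Against Tdg+/- 3 fell, where 3.52% of all genes were called higher and 5.51% lower. These were the RNA polymerase Polrmt by 0.62, the tRNA-processing nuclease Elac2 by 0.85 and the protease Lonp1 by 0.62 (adjusted p = 0.0474, 0.0278 and 0.0391 from edgeR). Of them Elac2 lies on chromosome 11 and Polrmt on chromosome 10, and the part of chromosome position was not tested. The 15 regulators of mitochondrial biogenesis tested had a median of -0.17 against wt, with none called. Without line 1, 5 fell, beside 10.5% of all genes. Pprc1, a coactivator of respiratory genes, fell by 0.69 against Tdg+/- (adjusted p = 0.0314 from edgeR). The 23 genes of the citric acid cycle and pyruvate dehydrogenase had a median of 0.02 against wt, and Ogdh, on chromosome 11, fell by 0.78 against Tdg+/- (adjusted p = 0.0278). The other 777 genes of that chromosome had a median of -0.41 in this comparison.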

How the data were processed

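RNA from 10 ESC lines was sequenced after removal of ribosomal RNA (stranded total RNA, single-end reads). The authors quantified transcripts of GRCm39 with Salmon 0.8.1. For each transcript the deposited files hold an estimated count and a TPM value by the authors. The deposited effective length, in bases, was used as a length and not as a signal. Estimated counts were summed per gene with GENCODE M21 names (98.97% of transcripts paired, 0.472% to 0.499% of reads unpaired) and rounded. Since that annotation is of another build, only chromosomes are given for genes. Of 2 genes named Atp5o, 1 had no read.

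A gene was tested if any line in the fit had 20 reads or more, which was done with edgeR 4.0.16 (quasi-likelihood, TMM, R 4.3.3) in the 2 genotypes compared, and p-values were adjusted by Benjamini-Hochberg over all genes tested. CPM are scaled by TMM. Standard errors are log2 fold change over the square root of F. Line medians use log2 CPM with a prior count of 2. Near-identical pseudogenes were found with blastn 2.17.0 (97% identity over 150 bases, same strand). The length trend was a lowess curve of each line's log2 CPM difference on log length, used as an offset. As a check of the code, the edgeR fits were run on simulated counts with 200 changed genes. The simulated counts for the main fit varied less between lines than the data and had no line that stood apart. Alternatives included DESeq2 1.42.0 and sva 3.50.0. Named genes were all mitochondrial members, called members, the highest and lowest of each complex in the comparisons with wt, the most abundant per complex, isoform families and, in other lists, called genes; others are named as chosen after their values were seen. The members and lists were chosen with earlier results of these data known. No 2 lines were near-identical in counts. Salmon splits reads shared by near-identical copies, which can move levels. mt-Rnr1 and mt-Rnr2 were not analysed here.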

Additional observations from a re-analysis of the deposited data

Results flagged for a closer look

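For 40 sets of values of named members in the Tdg-/- lines, the gap of the highest or lowest line to its nearest neighbour was divided by the whole range, and 2 passed the critical value of Dixon's test at the 95% level. Chance flags about 1 in 20 groups. For Atp5d the ratio was 0.863, since Tdg-/- line 2 was at 73.6 CPM and the others at 67.7, 68.5 and 68.3. For Cox7a2 it was 0.833, with 244 CPM in Tdg-/- line 1 and 377, 392 and 367 in the others, while the wt lines were at 285, 256 and 251 CPM.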

How the results depend on the processing

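Counts of called members depended on the alternative, and the cause was not tested. In Tdg+/- against wt, 1 member was higher and 1 lower without a filter on low counts (0.872% and 0.307% of all genes), 3 and 1 with DESeq2, and 10 and 13 with 3 surrogate variables, where 13.4% of all genes were called higher and 13.4% lower. In Tdg-/- against wt, DESeq2 called 2 lower, and the nuclear median was 0.06 with 3 surrogate variables and 0.099 with the length trend removed. In Tdg-/- against Tdg+/-, 7 were higher and 5 lower without the filter (2.42% and 4.24% of all genes) and 8 and 1 with all 10 lines in 1 fit (5.12% and 7.88%). There were 26 and 7 with DESeq2 (12% and 12%) and 48 and 11 with 3 surrogate variables (19.7% and 21.8%). With a transcript length offset 1 was higher and 2 lower, and the share of all genes in that fit is not given here. With the length trend removed 2 were higher and 6 lower (4.15% and 5.29% of all genes), and the nuclear median was 0.017. With the length trend removed and Tdg-/- line 1 left out, 14 members were higher and 6 lower against wt (nuclear median 0.13), and 17 and 17 against Tdg+/- (0.036). The mitochondrial to nuclear read ratio (log2) in Tdg-/- against wt was -0.38, and -0.83 as a median over members.

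With 1 line left out at a time, the ranges were as follows. In Tdg+/- against wt, 0 to 1 members were higher and 0 lower, with medians of -0.027 to 0.066 (nuclear) and -0.32 to 0.055 (mitochondrial). In Tdg-/- against wt, 0 to 55 were higher and 0 to 3 lower, with medians of 0.25 to 0.42 and -0.70 to -0.38. In Tdg-/- against Tdg+/-, 0 to 55 were higher and 0 to 5 lower, with medians of 0.23 to 0.44 and -0.59 to -0.16. The read ratio ranged from -0.32 to 0.27, from -0.75 to -0.16 and from -0.51 to -0.36. Adjusted p over all alternatives (edgeR or DESeq2) went from 5.65e-09 to 0.146 for Ndufaf4, 0.00127 to 0.2 for Uqcrc2, 0.00124 to 0.179 for mt-Cytb, 0.00251 to 0.215 for mt-Nd1 and 0.00175 to 0.195 for mt-Co2.

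With the replicate number as a block, 0 members were called higher and 0 lower in each comparison. The correlations of same-numbered lines, -0.207 to 0.187, do not show that the numbers pair the lines.

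For the 43 named members, 121 log2 fold changes (65 in whole-fit alternatives and 56 with 1 line left out) changed sign, in 52 of 117 results, and none of these was called before or after. With 3 surrogate variables these were in Tdg-/- against wt Sdha 0.048, Atp5g1 -0.032, Atp5g2 0.14, Cox7a2l -0.034, Ndufa4 -0.0043, Cox8a -0.024, Cox6b1 -0.0009 and Ndufa4l2 -0.89, and in Tdg-/- against Tdg+/- mt-Nd3 0.016, Uqcr10 -0.01, Uqcrq -0.065, Cox7b2 0.55 and Cox6b2 -0.12. With DESeq2 these were in Tdg-/- against Tdg+/- Cox6a1 0.0084. With RLE size factors these were in Tdg-/- against Tdg+/- Cox6a1 0.0083. With all 10 lines in 1 fit these were in Tdg-/- against wt Ndufa4l2 -0.018. With the length trend removed these were in Tdg+/- against wt Ndufa7 0.053 and Sdhb 0.0072, and in Tdg-/- against wt Ndufa4l2 -0.13 and Cox6a1 -0.1, and in Tdg-/- against Tdg+/- mt-Co3 -0.13, Uqcr10 -0.26, Uqcrq -0.3, Cox7a1 -0.2, Atp5b -0.058, Cox7a2 -0.043, Cox8a -0.13 and Cox6b2 -0.28. With the length trend removed and Tdg-/- line 1 left out these were in Tdg-/- against wt mt-Nd4l -1.29, Atp5b -0.0094, Ndufa4l2 -0.087 and Cox6a1 -0.15, and in Tdg-/- against Tdg+/- mt-Co3 -0.13, mt-Nd4l -1.66, Uqcr10 -0.17, Uqcrq -0.24, Cox7a1 -0.13, Atp5b -0.092, Atp5g2 -0.11, Cox7a2 -0.00069, Cox8a -0.13 and Cox6b2 -0.32. With library sizes that leave out mitochondrial genes these were in Tdg-/- against wt Ndufa4l2 -0.01. Without the filter these were in Tdg+/- against wt Sdhb 0.0029, and in Tdg-/- against wt Ndufa4l2 -0.011. With the reads of copies added these were in Tdg+/- against wt mt-Co3 -0.079 and Atp5g2 0.012, and in Tdg-/- against wt mt-Nd4l -0.55 and Atp5g2 0.23, and in Tdg-/- against Tdg+/- mt-Nd4l -0.77. With the replicate block these were in Tdg+/- against wt mt-Nd6 -0.19, and in Tdg-/- against wt Cox6b2 0.061, and in Tdg-/- against Tdg+/- mt-Nd6 0.013, Uqcrq -0.052 and Cox6a1 0.0092. With a transcript length offset these were in Tdg+/- against wt Ndufa11 -0.13, Atp5b -0.15, Atp5e -0.26, Atp5d -0.027, Atp5g3 -0.19 and Cox6b1 0.027, and in Tdg-/- against wt Sdha 0.079 and Ndufa4l2 -0.08, and in Tdg-/- against Tdg+/- Uqcrq -0.014 and Cox8a -0.064.

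In Tdg+/- against wt with 1 line left out, members that changed sign ranged from -0.48 to 0.053 (mt-Nd1), -0.25 to 0.34 (mt-Co1), -0.47 to 0.049 (mt-Co2), -0.098 to 0.16 (mt-Co3), -0.66 to 0.0097 (mt-Nd4), -0.81 to 0.2 (mt-Nd5), -0.87 to 0.56 (mt-Nd6), -0.32 to 0.075 (mt-Cytb), -0.017 to 1.06 (mt-Nd4l), -0.087 to 0.035 (Ndufa7), -0.045 to 0.097 (Sdhd), -0.042 to 0.053 (Sdhb), -0.025 to 0.073 (Atp5b), -0.042 to 0.29 (Atp5e), -0.067 to 0.28 (Atp5d), -0.054 to 0.066 (Atp5g3), -0.036 to 0.14 (Cox7a2), -0.0055 to 0.17 (Cox8a), -0.13 to 0.49 (Ndufa4l2) and -0.37 to 0.17 (Cox6b2). The ranges in Tdg-/- against wt were -0.71 to 1.49 (mt-Nd4l), -0.27 to 0.067 (Atp5d), -0.15 to 0.0065 (Atp5g2), -0.21 to 0.39 (Ndufa4l2) and -0.29 to 0.26 (Cox6b2). The ranges in Tdg-/- against Tdg+/- were -0.073 to 0.066 (mt-Nd3), -0.83 to 0.19 (mt-Nd5), -0.84 to 0.61 (mt-Nd6), -1.05 to 0.83 (mt-Nd4l), -0.074 to 0.16 (Uqcrq), -0.34 to 0.1 (Ndufa4l2), -0.047 to 0.029 (Cox6a1), -0.39 to 0.58 (Cox7b2) and -0.03 to 0.25 (Cox6b2).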
